A study of Mus musculus with 10 samples.

Results

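In a ChIP-seq study of mouse pre-iPSCs, partly reprogrammed cells, chromosome 14 had fewer called peaks per Mb than any other autosome. This held for Nanog and for Sin3a. The chromosome was chosen by its low peak density in the deposited lists, so its peak numbers are given as a description with no test. Its members are all deposited peaks on chromosome 14 of genome build mm9. They number 2297 of the 110170 peaks of 4 lists. Merged wherever they shared a base, they form 1038 of 45707 regions.

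All cells were female, derived from neural stem cells of strain 129/MF1, carried an Oct4-GFP-IRES-puro reporter and were grown in serum with LIF. PiggyBac transposon vectors with the constitutive CAG promoter, put in by stable transfection and kept by drug selection, gave 3 lines. The Sin3a line received Sin3a and an empty vector (EV), the Nanog line received FLAG-tagged Nanog and EV, and the Nanog + Sin3a line, called the double line here, received both genes. Sin3a was precipitated with an antibody to Sin3a itself, which can take up the cell's own protein as well as that from the vector, in the Sin3a line and the double line. FLAG, present on the Nanog of the vector and not on the cell's own, was precipitated in the Nanog line and the double line. Each of these 4 groups has 2 replicates and 1 deposited peak list that holds no value per replicate, so the spread between replicates is unknown for every difference given here. The 95% intervals are over peaks and cover counting error only. The sources used here do not give whether a line is 1 clone or a pool.

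Nanog is a homeodomain transcription factor of the pluripotency network and binds mostly at enhancers and promoters. Sin3a has no known DNA-binding domain of its own: it is a scaffold that brings histone deacetylases to chromatin through the factors it binds, mostly near promoters. Binding sites of both tend to follow genes, and mouse chromosome 14 alternates gene-rich stretches with long gene-poor ones, mainly in its distal portion. No gene is assigned to a peak here, because the gene table used is of another build, and no sequence is printed for the same reason.

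On chromosome 14 there were 324 Sin3a peaks in the Sin3a line, 366 Sin3a peaks in the double line, 793 FLAG peaks in the Nanog line and 814 FLAG peaks in the double line. Over its 125.2 Mb this made 2.59 and 2.92 Sin3a peaks and 6.33 and 6.50 FLAG peaks per Mb. Each was the lowest density among the 19 autosomes of its list. The next sparsest was chromosome 18 for Sin3a, at 4.22 and 4.95 peaks per Mb, and chromosome 12 for FLAG, at 12.0 and 11.7. The medians of the other 18 autosomes were 7.23 and 7.58 Sin3a peaks and 15.4 and 14.3 FLAG peaks per Mb.

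**Figure D1:**
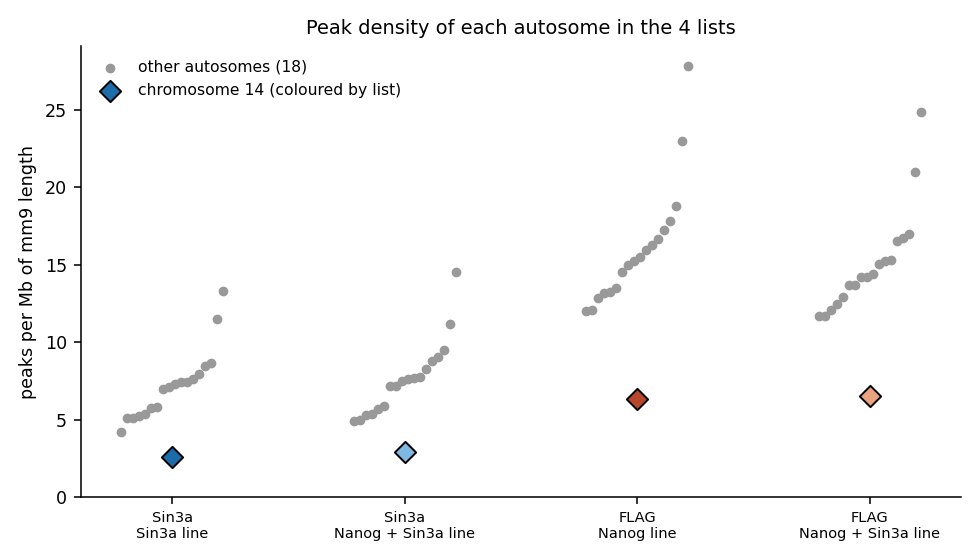
Peaks per Mb of each autosome in each of the 4 lists, with chromosome 14 as a coloured diamond and the other 18 autosomes as grey points. Chromosome 14 lies below every other autosome in each list, at 2.59 and 2.92 Sin3a peaks and 6.33 and 6.50 FLAG peaks per Mb.

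Relative to the other autosomes pooled, the density of Sin3a peaks on chromosome 14 was 0.365 (0.327 to 0.408) in the Sin3a line and 0.389 (0.351 to 0.431) in the double line. For FLAG it was 0.401 (0.373 to 0.430) in the Nanog line and 0.437 (0.408 to 0.469) in the double line. Peaks of both proteins were thus sparse. The number of Sin3a peaks per FLAG peak on chromosome 14 was 0.912 times that elsewhere for the single-transgene lines, with an interval of 0.800 to 1.04, and 0.889 times in the double line, with an interval of 0.785 to 1.01. Both intervals include 1.

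Strong peaks were at least as sparse as weak ones. When only peaks of −log10 q 25 and above were kept, the density ratios were 0.286 and 0.314 for Sin3a and 0.345 and 0.375 for FLAG, from 43, 37, 119 and 109 peaks on chromosome 14. At 50 and above chromosome 14 held 3 of the 457 Sin3a peaks in the Sin3a line and 1 of 282 in the double line. The FLAG lists had 26 of 1701 and 33 of 1477 such peaks there. With so few peaks the ratios at this threshold are wide: 0.124 (0.0398 to 0.386) for Sin3a in the Sin3a line and 0.433 for FLAG in the double line.

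**Figure D2:**
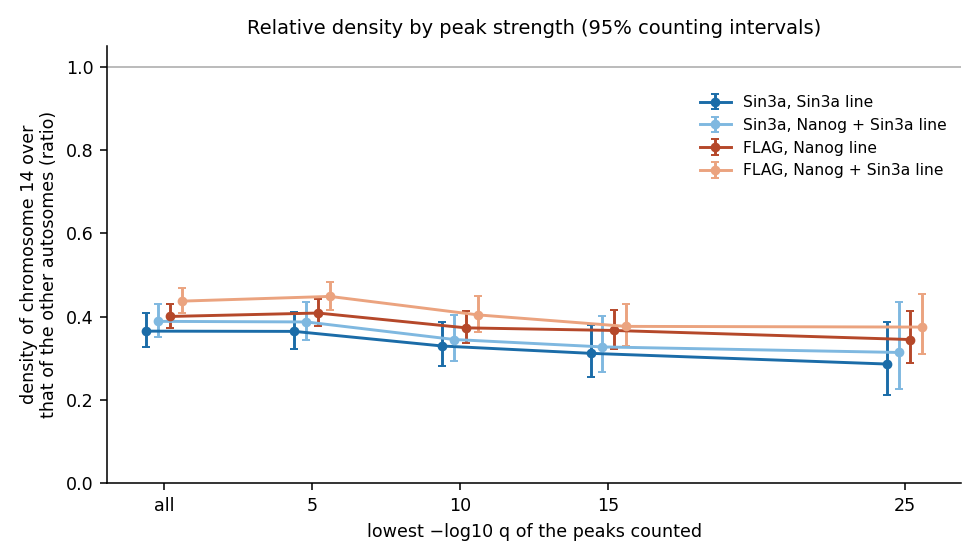
Density of chromosome 14 relative to the other autosomes against the lowest −log10 q kept, for each list, with 95% intervals over peaks. All ratios stay below 1, and at a −log10 q of 25 they lie between 0.286 and 0.375.

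The peaks were spread unevenly along the chromosome. Between 20 and 35 Mb, a stretch of 15 Mb, there were 98 and 125 Sin3a peaks and 301 and 268 FLAG peaks, which is 30.2% and 34.2% of the Sin3a peaks and 38.0% and 32.9% of the FLAG peaks of chromosome 14. This stretch held 6.53 and 8.33 Sin3a peaks and 20.1 and 17.9 FLAG peaks per Mb. In 3 of the 4 lists that is above the median of the other autosomes. From 45 to 50 Mb the densities were 6.40 and 9.0 for Sin3a and 17.6 and 19.2 for FLAG. The stretches were outlined after their values had been seen.

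Most of the rest of the chromosome was sparse. From 0 to 5 Mb there was no peak in any list, and the first region began at 8.64 Mb, whereas on the other autosomes the first region began between 3.02 and 5.58 Mb. From 35 to 45 Mb the Sin3a lists held 1.5 and 1.9 and the FLAG lists 4.1 and 4.5 peaks per Mb. From 55 to 80 Mb there were 3.32 and 3.40 Sin3a peaks and 7.12 and 6.84 FLAG peaks per Mb. The emptiest long stretch ran from 80 to 120 Mb: its 40 Mb held 27 and 19 Sin3a peaks and 40 and 61 FLAG peaks, or 0.675 and 0.475 Sin3a peaks and 1.00 and 1.53 FLAG peaks per Mb. Towards the end of the chromosome, from 120 Mb on, the densities were 3.85 and 3.46 for Sin3a and 7.70 and 9.24 for FLAG. Both proteins were dense from 20 to 35 Mb and sparse from 80 to 120 Mb in every list, but they did not go together everywhere. From 50 to 55 Mb there were 5 and 5.2 Sin3a peaks and 8 and 8.6 FLAG peaks per Mb. The window from 55 to 60 Mb held 29 and 31 Sin3a peaks, near the 25 and 32 of the window from 25 to 30 Mb. Its FLAG peaks numbered 39 and 39, against 112 and 89 in that window.

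**Figure D3:**
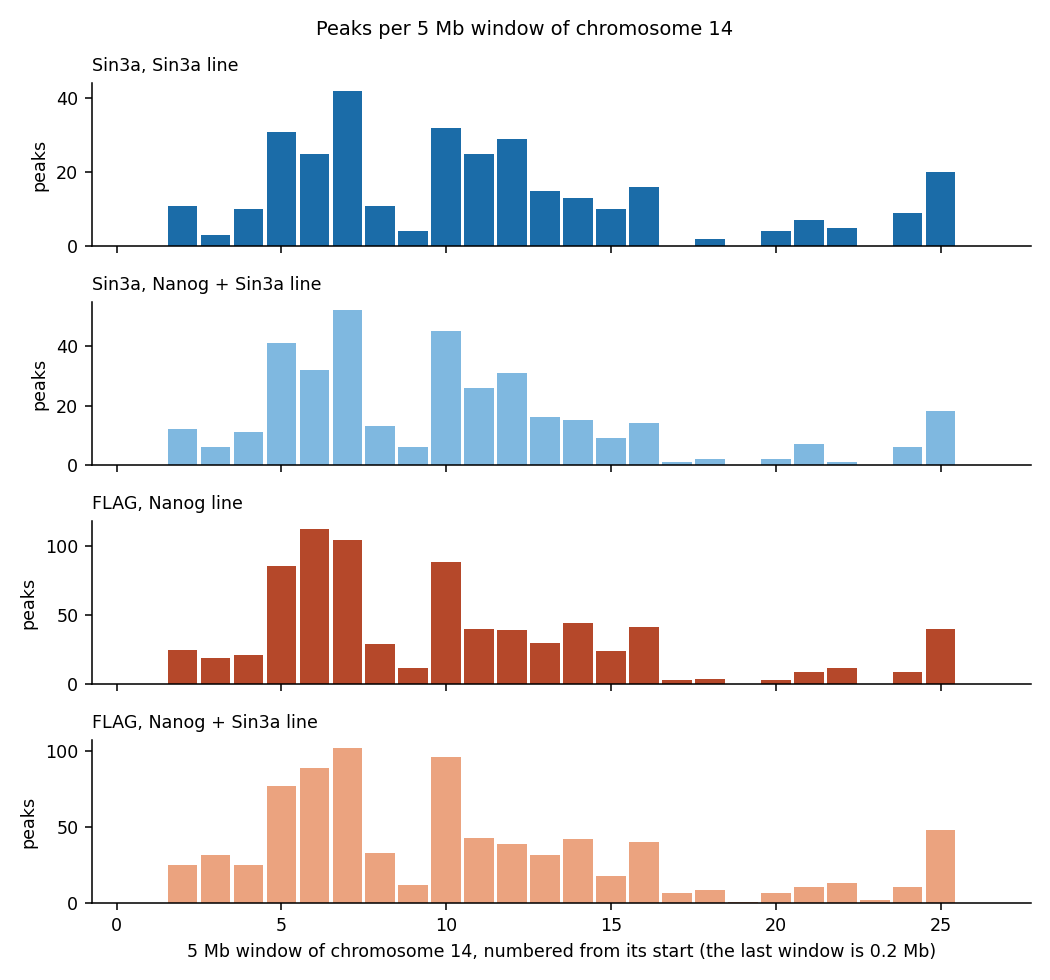
Peaks per window along chromosome 14 in consecutive windows of 5 Mb, numbered from the start of the chromosome, for each of the 4 lists. The windows from 20 to 35 Mb and from 45 to 50 Mb are high in every list and those from 80 to 120 Mb are low in every list.

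In windows of 1 Mb the low density showed both as more empty windows and as fewer peaks in the occupied ones. Of the 126 windows of chromosome 14, 57 and 56 had no Sin3a peak (45.2% and 44.4%), against 28.6% and 29.3% of the 2356 windows of the other autosomes. No FLAG peak was found in 44 and 40 windows (34.9% and 31.7%), against 17.4% and 13.8% elsewhere. Windows that held a peak had on average 4.70 and 5.23 Sin3a peaks, against 9.88 and 10.6 elsewhere, and 9.67 and 9.47 FLAG peaks, against 19.1 and 17.2.

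The 3 windows with the most merged regions all lay in the dense stretch. The window from 26 to 27 Mb had 56 regions, and held 12 and 13 Sin3a peaks but 56 and 36 FLAG peaks. That from 21 to 22 Mb had 55 regions, with 22 and 29 Sin3a and 53 and 46 FLAG peaks. The third, from 32 to 33 Mb, had 54 regions, with 20 and 26 Sin3a and 51 and 47 FLAG peaks. On the other autosomes 127, 135 and 144 windows respectively had more regions, or 5.39%, 5.73% and 6.11% of them. The densest windows of chromosome 14 were therefore among the denser ones of the genome, though the densest window elsewhere had 139 regions.

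The 3 longest stretches without a peak of any list all lay in the distal portion. They were chr14:87817815-94111348 (6.29 Mb), chr14:111660861-115441441 (3.78 Mb) and chr14:80954883-84557329 (3.60 Mb). On the other autosomes 2 stretches were longer than the first, and the longest, on chromosome 7, measured 7.65 Mb. The median distance between neighbouring regions was 20.8 kb on chromosome 14 and 10.4 kb on the other autosomes.

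The level of the control reads also changed along chromosome 14. A peak's deposited fold and p together fix the number of ChIP fragments over its summit and the background level expected there. The commonest background of each list was 25.9 control tags per kb, the same in all 4 lists, and is called the genome-wide level here. The recovery took it as the lowest background allowed. A background above it was read as a locally denser control. The 4 lists therefore appear to share 1 control, and their control levels are not 4 separate measurements. The sources used here do not give which library served as control.

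The expected background was above the genome-wide level at 68 of 324 Sin3a peaks of chromosome 14 in the Sin3a line (21.0%) and at 75 of 364 in the double line (20.6%). On the other autosomes it was above in 47.3% and 44.2% of peaks. For FLAG it was above at 221 of 791 peaks in the Nanog line (27.9%) and at 217 of 812 in the double line (26.7%), against 52.3% and 52.7% elsewhere. In each list this was the lowest share of the 19 autosomes, with chromosome 18 next at 36.1%, 33.3%, 43.8% and 41.1%.

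The low shares were uneven along the chromosome and lowest in its distal portion. The single division of chromosome 14 that best described these shares, by binomial likelihood with at least 50 peaks a side, lay at 52.8 Mb, between summits at chr14:52815978 and chr14:52816914. Proximal to it, towards the centromere, 551 of 1473 peaks (37.4%) had a background above the genome-wide level. Distal to it the number was 30 of 818 (3.67%), so that the shares differed 10.2-fold. With each divided in the same way at its own best place, no other autosome had a ratio above 2.09, and no side of any other autosome had a share below 28.7%. In points, however, the sides differed more on chromosomes 1 and 15 than on chromosome 14 (33.7 points). The 4 lists taken singly placed the division between 52.64 and 52.88 Mb, and many of their peaks lie at the same sites.

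Windows of 5 Mb gave the same picture. Of the windows with at least 20 peaks, the 9 that begin at or beyond 55 Mb had shares of 0 to 5.80%, and the 10 before them had shares of 21.7 to 46.9%. The 451 such windows on the other autosomes had shares of 17.2% or more. The division and the windows' grouping were chosen after the values had been seen. As background, the density of control reads over a region goes with the number of copies of it in the cells and with how much of it can be mapped uniquely. Neither was measured separately, and the part of the control level in the low peak density was not tested.

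**Figure D4:**
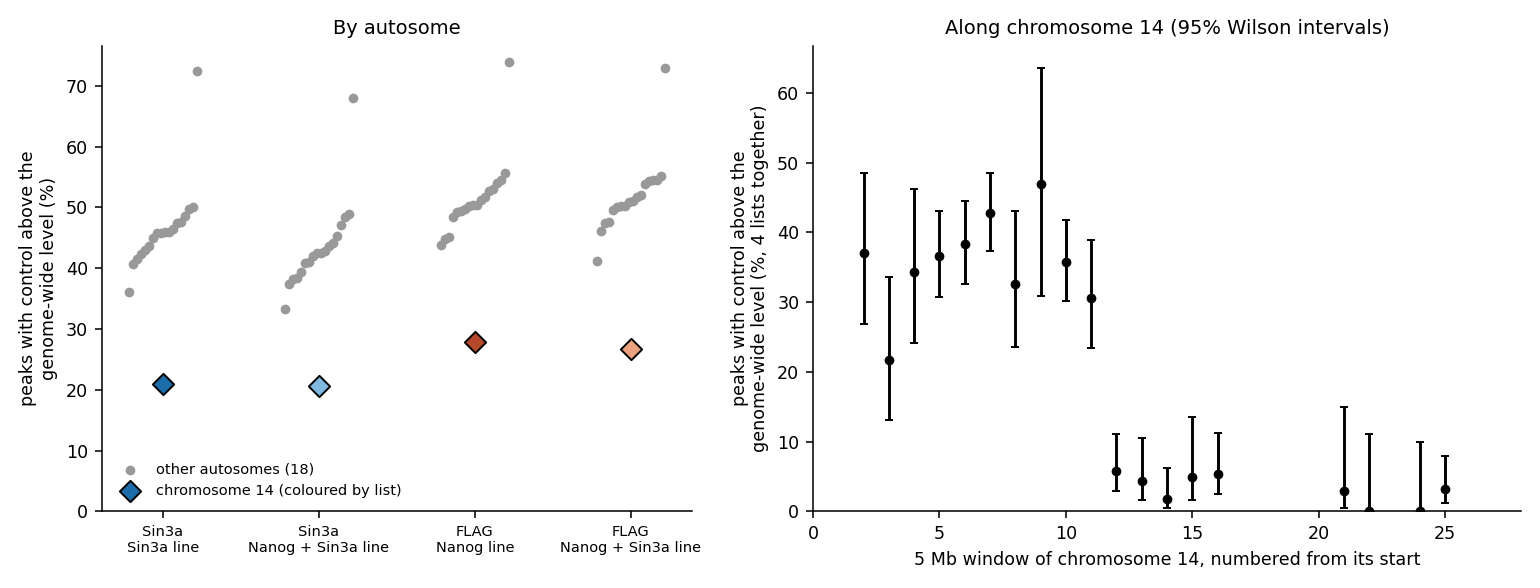
Share of peaks whose expected background lies above the genome-wide control level: by autosome in each list, and along chromosome 14 in windows of 5 Mb that hold at least 20 peaks of the 4 lists pooled, with 95% Wilson intervals. Chromosome 14 is lowest in each list, and its windows from 55 Mb on have shares of 0 to 5.80%.

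Peaks were sparse on both sides of the division. The proximal 52.8 Mb held 636 regions (12.0 per Mb) and the distal 72.4 Mb held 402 (5.55 per Mb). In the proximal portion the density relative to the other autosomes was 0.503 and 0.599 for Sin3a and 0.632 and 0.669 for FLAG. There the share of peaks with a raised background was 34.0%, 31.4%, 40.3% and 38.4% in the same order, which is above the distal shares but below that of every other whole autosome in each list. In the distal portion the density ratios were 0.265 and 0.235 for Sin3a and 0.232 and 0.269 for FLAG. Density and control level were thus both lower distally than proximally, and both were lower proximally than on the other autosomes pooled.

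The authors' fold, the scaled ChIP signal over the expected background at the summit, was much the same on chromosome 14 as elsewhere in its list. Its median was 4.57 and 4.53 for Sin3a, against 4.74 and 4.63 on the other autosomes, and 4.75 and 4.74 for FLAG, against 4.75 and 4.74. The ratios of these medians were 0.964, 0.979, 1.00 and 1.00, and chromosome 14 ranked 5, 4, 2 and 12 from the lowest of the 19 autosomes. Counted as ChIP fragments over the summit, its median peaks were weaker. The medians were 41 and 36 fragments for Sin3a, against 46 and 39 elsewhere, and 32 and 37 for FLAG, against 34 and 40. No autosome had a lower median number of fragments in any list, and chromosome 6 had the same one for Sin3a in the double line. Fold is relative to the expected background, which was lower on chromosome 14, and a count of fragments is not.

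FLAG peaks of chromosome 14 were narrower than those elsewhere, and for Sin3a the intervals did not separate the widths. Their median widths were 486.5 and 421 bp for Sin3a, against 500 and 474 bp on the other autosomes, and 325 and 335.5 bp for FLAG, against 360 and 353 bp. In 3 lists this was the lowest median of the 19 autosomes, and for Sin3a in the Sin3a line it ranked 5 from the lowest. The ratios of the medians were 0.973 (0.850 to 1.07) and 0.888 (0.793 to 1.01) for Sin3a, whose intervals include 1, and 0.903 (0.864 to 0.944) and 0.950 (0.901 to 0.992) for FLAG.

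Fragment numbers and widths were lowest in the distal portion. There the median summit had 37 and 32 Sin3a fragments and 30 and 35 FLAG fragments, and proximally 46.5 and 38 and 33 and 40. The median width was 384 and 373.5 bp for Sin3a and 302 and 297 bp for FLAG distally, and 573.5 and 478.5 bp and 340.5 and 355 bp proximally. Proximal fragment numbers were between 0.971 and 1.01 times those of the other autosomes, and distal ones between 0.804 and 0.882 times. Median fold was 4.09 and 4.25 for Sin3a distally, against 5.07 and 4.76 proximally. For FLAG the portions were closer, at 4.75 and 4.62 against 4.91 and 4.87.

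The highest Sin3a folds of chromosome 14 fell at the same place in both lines: 15.4 at chr14:21526295-21527731 in the Sin3a line and 16.1 at chr14:21526238-21527759 in the double line. They ranked 68 and 36 in their lists. The highest FLAG fold was 25.7 in the Nanog line, at chr14:21710822-21712307 (rank 68), and 24.8 in the double line, at chr14:78688661-78689229 (rank 74). The tops of the lists reached 27.3, 32.3, 42.4 and 42.8. Chromosome 14 held 1.89%, 2.01%, 2.06% and 2.24% of the peaks of the lists. With so few peaks, these ranks do not show that its strongest sites are weaker than those elsewhere.

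Among regions held by all 4 lists, the strongest by mean −log10 q was chr14:21710809-21712307. Its FLAG folds were 25.7 and 22.4, from 167 and 176 fragments, and its Sin3a folds 4.31 and 5.50, from 38 and 42 fragments. It was a strong FLAG site with a Sin3a signal not far from the median of its list. A like pattern was seen at chr14:47609373-47609983, with FLAG folds of 22.6 and 18.6 and Sin3a folds of 3.54 and 3.74. At chr14:8658641-8659526, close to the first region of the chromosome, the FLAG folds were 16.8 and 12.7 and the Sin3a folds 7.54 and 5.14. The fourth, chr14:21212214-21213278, had Sin3a folds of 10.5 and 11.7, which ranked 587 of 17168 and 274 of 18231 in their lists. Its FLAG folds were 10.6 and 10.8, which ranked 2603 of 38485 and 1980 of 36286. Within the lists it thus stood higher for Sin3a than for FLAG.

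Strong FLAG sites without a Sin3a peak were found on both sides of the division. The strongest, chr14:78688661-78689229, lay in the distal portion and had FLAG folds of 16.2 (Nanog line) and 24.8 (double line), from 105 (86 to 127) and 194 (168 to 223) fragments. At chr14:26557998-26558451 the folds were 13.1 and 21.4, and at chr14:31713131-31713571 they were 13.5 and 20.4. The fourth, chr14:45945133-45945710, had folds of 20.3 and 15.3. These values describe each site within 1 list and do not measure a change between the lines, since read depth is unknown. On the other autosomes the median FLAG peak had 34 fragments in the Nanog line and 40 in the double line. Whether binding at these sites differed between the lines was not tested.

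The strongest Sin3a sites without FLAG stood lower in their own lists, but they were the top of fewer regions. On chromosome 14 there were 24 regions with only Sin3a peaks of both lines and 308 with only FLAG peaks of both lines. The ranks therefore do not compare typical sites. The strongest Sin3a site without FLAG found in both lines, chr14:28409481-28409840, had Sin3a folds of 6.78 and 7.84, which ranked 3705 and 1970. The next, chr14:58042739-58043361 in the distal portion, had 6.38 and 5.65, which ranked 4302 and 5736. The FLAG folds at chr14:78688661-78689229 ranked 426 and 74 in their lists. Of the regions held by a single list, the top one was chr14:71166622-71166911 for Sin3a in the Sin3a line (fold 5.07) and chr14:49792164-49792612 for Sin3a in the double line (5.91). For FLAG it was chr14:66323180-66323444 in the Nanog line (5.98) and chr14:41373524-41374002 in the double line (8.04).

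Peaks of the 2 proteins coincided less often on chromosome 14 than elsewhere. In the Sin3a line 268 of 324 Sin3a peaks (82.7%) shared a base with a FLAG peak of the Nanog line, against 88.7% on the other autosomes, a difference of -5.98 points (-10.5 to -2.22). In the double line 271 of 366 Sin3a peaks (74.0%) overlapped a FLAG peak, against 80.6%, a difference of -6.53 points (-11.3 to -2.27). Both shares were the lowest of the 19 autosomes, though still a large majority of the Sin3a peaks.

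Of the FLAG peaks, 296 of 793 in the Nanog line (37.3%) overlapped a Sin3a peak, against 42.0%, a difference of -4.68 points (-8.02 to -1.22). In the double line 278 of 814 (34.2%) did, against 42.7%, a difference of -8.51 points (-11.7 to -5.14). The latter was the lowest share of the 19 autosomes and the former ranked 5 from the lowest. FLAG peaks of chromosome 14 that overlapped Sin3a were wider, with medians of 428 and 455 bp, than those that did not, at 287 and 292 bp. On the other autosomes these medians were 546 and 488 bp with overlap and 289 and 297 bp without. With the other autosomes weighted to the widths of the chromosome 14 peaks, the differences for Sin3a were -5.03 points (-9.52 to -1.30) in the Sin3a line and -4.21 points (-8.94 to 0.0122) in the double line. Those for FLAG were 0.145 points (-3.15 to 3.57) in the Nanog line and -5.52 points (-8.70 to -2.19) in the double line. At matching widths the intervals of Sin3a in the double line and of FLAG in the Nanog line thus included 0, and the latter difference changed sign.

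For Sin3a the lower overlap lay in the distal portion. Proximally 94.1% of Sin3a peaks in the Sin3a line overlapped a FLAG peak, and distally 66.9%, a difference of 27.2 points (18.7 to 35.9). In the double line the shares were 81.5% and 60.2%, a difference of 21.4 points (11.6 to 31.1). At the widths of the distal peaks the other autosomes had 84.8% and 76.2%. For FLAG peaks the shares were 37.9% and 36.2% in the Nanog line, a difference of 1.65 points (-5.53 to 8.62), and 38.1% and 27.0% in the double line, a difference of 11.1 points (4.36 to 17.5). At the distal widths the other autosomes had 32.5% and 35.3%. Distal peaks also had fewer fragments, a lower control level and fewer FLAG peaks per Mb around them, as given above. The part of these in the lower overlap was not tested.

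**Figure D5:**
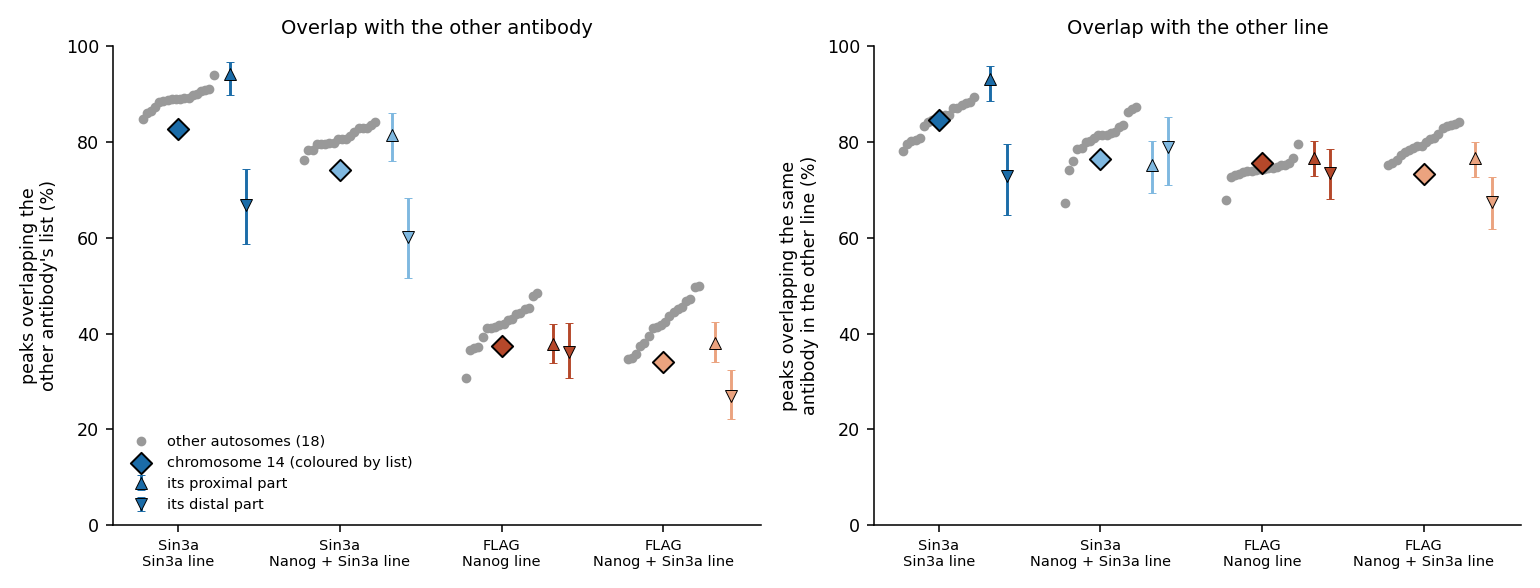
Share of the peaks of each list that overlap a peak of the other antibody (left) or of the same antibody in the other line (right), for chromosome 14 (diamonds), its proximal and distal portions (triangles, with 95% Wilson intervals) and the other 18 autosomes (grey). Distal Sin3a peaks overlapped FLAG peaks in 66.9% and 60.2% of cases, below every whole autosome.

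Sorted by class, 310 of the 1038 regions of chromosome 14 held peaks of both proteins (29.9%, against 37.6% elsewhere), 648 held FLAG peaks alone (62.4%, against 57.2%) and 80 held Sin3a peaks alone (7.71%, against 5.21%). On single other autosomes the share with both proteins ran from 29.1% to 41.8%, and that with FLAG alone from 51.7% to 67.7%. Chromosome 14 was thus not the extreme for either. The share of Sin3a-only regions was the highest of the 19 autosomes. Proximally it was 28 of 636 (4.40%) and distally 52 of 402 (12.9%, with an interval of 10.0 to 16.6). The whole-chromosome shares of the other autosomes ran from 3.18% to 7.02%. Regions with peaks of all 4 lists made up 145 of the 636 proximal ones (22.8%) and 64 of the 402 distal ones (15.9%), against 26.0% elsewhere. For chromosome 14 as a whole it was 20.1%, and single other autosomes ran from 20.0% to 30.7%.

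Where both proteins were found on chromosome 14, the peaks were stronger, as they were on the other autosomes. Sin3a peaks that overlapped FLAG had a median fold of 4.96 in both lines, and those that did not had 3.75 and 3.99. FLAG peaks that overlapped Sin3a had a median fold of 5.52 and 5.09, and those alone 4.60 and 4.49. Among the top 20% of the Sin3a peaks of chromosome 14 by −log10 q, 62 of 64 (96.9%) and 70 of 73 (95.9%) overlapped FLAG, and on the other autosomes 99.2% and 97.6%. Among the top 20% of its FLAG peaks, 88 of 158 (55.7%) and 78 of 162 (48.1%) overlapped Sin3a, and on the other autosomes 70.1% and 57.7%. In both FLAG lists the share was thus lower on chromosome 14. The top 20% was taken separately on chromosome 14 and on the other autosomes, and widths were not matched. Chromosome 14 had the lowest share of FLAG peaks of −log10 q 25 and above among the 19 autosomes, 15.0% and 13.4%.

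Within shared sites the summits lay close together, which follows in part from the sites being overlapping peaks. The Sin3a-to-FLAG distances on chromosome 14 are over 213 and 210 pairs, fewer than the 268 and 271 overlapping Sin3a peaks. On chromosome 14 the median Sin3a-to-FLAG summit distance was 83 bp (71 to 98) in the single-transgene lines and 76 bp (62 to 95) in the double line, against 74 and 83 bp elsewhere. Between lines, FLAG summits lay 32 bp apart (28 to 35), against 37 bp on the other autosomes, and 88.8% of them were within 100 bp, against 83.8%. Sin3a summits of the 2 lines lay 60 bp apart (48 to 66), against 50 bp. These distances differed from those elsewhere by at most 10 bp.

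Between the lines the sites of chromosome 14 were largely shared. Of the Sin3a peaks in the Sin3a line 274 of 324 (84.6%) overlapped one of the double line, against 84.3% elsewhere, and in the other direction 280 of 366 (76.5%) did, against 80.5%. The differences were 0.242 and -4.04 points, and the interval of the second, -8.69 to 0.053, includes 0. The first value joined unlike portions. Of the Sin3a peaks in the Sin3a line 93.1% were shared proximally and 72.8% distally. That is a difference of 20.3 points (12.1 to 28.8). At the widths of the proximal and distal peaks the other autosomes had 85.8% and 77.7%. For the Sin3a peaks of the double line the shares were 75.2% and 78.9%, a difference of -3.70 points (-12.2 to 5.65). There the other autosomes had 78.3% and 74.9% at matching widths. Of the FLAG peaks in the Nanog line 600 of 793 (75.7%) overlapped one of the double line, against 74.2%, a difference of 1.43 points (-1.71 to 4.32). Among peaks with a −log10 q of at least 10 this difference turned to -4.56 points (-9.61 to 0.102), and both intervals include 0.

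In the other direction 597 of 814 FLAG peaks of the double line (73.3%) met one from the Nanog line, against 80.0%. The difference was -6.66 points (-9.83 to -3.71), and the share was the lowest of the 19 autosomes. Among merged regions, 200 on chromosome 14 (19.3%) held a FLAG peak of the double line and no other peak, against 14.3% elsewhere, also the highest share of the 19 autosomes. The FLAG list of the double line had 1.03 times as many peaks on chromosome 14 as that of the Nanog line, and 0.940 times as many on the other autosomes. In the top 20% of the FLAG peaks of chromosome 14, 158 of 158 in the Nanog line and 159 of 162 in the double line had a peak in the other line (100% and 98.1%), and on the other autosomes nearly as many did (99.96% and 96.7%). In the distal portion 67.5% of the FLAG peaks of the double line were shared, and in the proximal portion 76.6%, a difference of 9.10 points (2.70 to 15.7). At the distal and proximal widths the other autosomes had 74.4% and 79.7%, so they too had a lower share at the distal widths.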

How the data were processed

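ChIP-seq was run on 10 samples of mouse pre-iPSCs, 8 of them ChIP samples in 4 groups of 2 replicates, grouped by their descriptions. Input and IgG were not analysed here. Per the submitters' processing notes, reads were processed with SAMtools 0.1.19, Bowtie 1.0.0 and FastQC 0.10.1 on build mm9, in an order not stated. The sources used here do not give the peak caller, whether replicates were pooled, or the total reads per sample, so depth is known only through fragment numbers at summits.

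For each group 1 list of peaks was deposited, with no header. The deposited fold is a ratio of scaled ChIP pileup to expected background at the summit, both raised by 1, as was tested on the values. The deposited −log10 p and −log10 q of the summit, and the deposited score, which equals 10 times the −log10 q without decimals in 100% of rows, are the authors' own values. They were used within a list, to filter, rank or describe its peaks, except that regions to be named were ranked by the mean −log10 q over the lists holding them. From fold and −log10 p, exactly 1 whole number of ChIP fragments was recovered for 99.9%, 99.5%, 98.9% and 99.5% of peaks (in the order used throughout: Sin3a, single-transgene then double line, and FLAG, single-transgene then double line), within 0.01 fragments. The recovery and overlap code was tested on simulated data. For the recovery these data were made with the same formulas, so that test checks the code and not the formulas. Duplicate reads cannot be seen.

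Last peaks pass the GRCm38 length on 8 of 20 chromosomes and the mm9 length on 0 (lengths from GenomeInfoDb 1.38.1). Coordinates are mm9 and 1-based. X, Y and unplaced sequences were left out of the comparisons. Overlap meant at least 1 shared base. Shares carry 95% Wilson intervals, differences Newcombe intervals, fragment numbers exact Poisson intervals and medians order-statistic intervals. No p-value was computed, since peaks are not replicates. The regions named were, by mean −log10 q, the top 4 held by all 4 lists, the top 4 held by both FLAG lists alone, the top 2 held by both Sin3a lists alone and the top 1 of each single list. The 3 densest windows and 3 longest gaps were also named. Alternatives changed the −log10 q minimum, the list sizes, the chromosome length, the reference, the strength measure, the overlap rule, the widths and the window size. Chromosome 14, its regions and the comparisons were chosen with earlier results of these data known. The tools were Matplotlib 3.10.9, SciPy 1.17.1, pandas 2.3.3, NumPy 2.4.6 and Python 3.11.15.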

Additional observations from a re-analysis of the deposited data

How the results depend on the processing

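Of 74 values recomputed under another setting, 54 moved by less than counting error and 20 by more. The direction turned in 6 of the 74: 2 overlaps of FLAG in the Nanog line, given below, 3 relative strengths of FLAG in the double line, whose ratio by fold is 1.00, and the relative strength of Sin3a in that line, from 0.979 to 1.01 at a −log10 q of at least 10. Of 16 values at other −log10 q minimums, chosen after seeing the data, 11 moved. With a −log10 q of at least 10, the density ratio was 0.345 for Sin3a in the double (Nanog + Sin3a) line and 0.373 and 0.404 for FLAG, and 0.401 for FLAG in the double line with equal numbers of peaks. At 15 it was 0.312, 0.327, 0.367 and 0.377, at 25 it was 0.286, 0.314, 0.345 and 0.375, and at 50 it was 0.124, 0.0670 and 0.293 in the first 3 lists. Relative strength was 0.863, 0.944, 0.945 and 0.953 by −log10 q, and 0.891, 0.923, 0.941 and 0.925 by fragments. At a −log10 q of 10 the relative width of FLAG peaks was 0.853 and 0.899. The same minimum gave -13.5 points for the overlap of Sin3a with FLAG in the double line, and -4.56 points (turned from 1.43) and -11.4 points for the overlap of FLAG between lines. It gave 25.7 and 26.4 points more empty windows for Sin3a. The overlap of FLAG with Sin3a in the Nanog line reversed to 0.145 points at matching widths. For the others the cause was not tested. No replicate could be left out, since each group has 1 list. No paired analysis was possible because the lists carry no replicate. Intervals over peaks do not cover differences between cultures, and read depth per sample is not known.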

Other observations

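With every autosome divided at its own best place and the 4 lists pooled, the share of peaks with an expected background above the genome-wide control level differed to some degree between the sides on each of them. The largest differences in points were on chromosomes 1 and 15, followed by chromosome 14 (33.7 points) and chromosome 10 (47.4% against 71.7%). On chromosome 1 it was 1544 of 3336 peaks (46.3%) up to the summit at 116073042 and 3529 of 3654 (96.6%) from the summit at 118263607 on. On chromosome 15 it was 800 of 883 (90.6%) up to 34509715 and 1947 of 4397 (44.3%) from 35084257 on. On the distal portion of chromosome 14 it was 30 of 818 (3.67%).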
